A study of Mus musculus with 7 samples.

Results

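Histone genes were followed in polyA RNA of mouse kidney. Protein-coding genes were taken whose symbol starts with Hist1h to Hist4h, which are the genes of the replication-dependent histone clusters, together with 9 named variant histone genes (H2afx, H2afy, H2afy2, H2afz, H2afv, H2afj, H3f3a, H3f3b and H1f0). The rule found 61 of the 17537 genes listed, 52 from the clusters and 9 variants. The cluster genes encode H1 (3 genes), H2A (15), H2B (15), H3 (7) and H4 (12), and the variants belong to H1 (1), H2A (6) and H3 (2).

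Histones package DNA into nucleosomes, with H2A, H2B, H3 and H4 in the core and H1 on the linker DNA. Messages of the clustered genes are made mainly in S phase, lack introns and normally end in a conserved stem-loop that is bound by SLBP instead of in a poly(A) tail. Variant histones such as H2afz and H3f3a are made throughout the cell cycle from genes outside the clusters, most of them with introns and a poly(A) tail, and are the main supply of cells that do not divide. A polyA library therefore samples the cluster genes mainly through messages that carry a tail, and H2afx is a known intermediate, with both kinds of message end.

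The 7 libraries came from 1 mouse each, on the C57BL/6 strain. Control mice (C, replicates 2, 8 and 9) received no streptozotocin, diabetic mice (DM-22, replicates 1 and 2) received 60 mg/kg of this beta cell toxin on 5 days and were kept for 22 weeks, and treated mice (DM+SGLT2i, replicates 1 and 2) were made diabetic in the same way and drank dapagliflozin, an inhibitor of the glucose transporter SGLT2, at 25 mg/kg during the last 6 weeks, after 16 weeks of hyperglycemia. Mice were 8 to 10 weeks old at the start and male by the sample labels, while the study's methods give both sexes. This is a toxin model of type 1 diabetes, with 2 or 3 mice per group and no treated group without diabetes, and p-values measure only the spread between these libraries.

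Each library held 46456125 to 56541594 reads on the genes of the table, and 1 read was worth 0.0180 to 0.0231 CPM (reads of a gene per library, put on 1 scale by the TMM method). Control replicate 2 stood apart from the other controls. The median absolute log2 difference over the 13976 tested genes was 0.408 and 0.391 between this library and control replicates 8 and 9, against 0.110 between those 2. The summed level of 10 macrophage markers (Adgre1, Cd68, C1qa, Lyz2 and others) was 1375 CPM in control replicate 2, 363 and 377 CPM in the other controls and 541 to 842 CPM in the 4 diabetic libraries. Cd74 alone gave 792 CPM of this sum in control replicate 2 and 210 and 224 CPM in the other controls. Csf1r, Itgam and Mrc1 departed from this order, each with a DM-22 library below control replicates 8 and 9. Kidney segments were also unequally represented: Slc12a1, the salt transporter of the thick ascending limb, was at 5580 and 602 CPM in DM-22 replicates 1 and 2. In bulk tissue, fewer cells of a type and less RNA per cell cannot be told apart. Comparisons are therefore given with and without control replicate 2.

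The stem-loop was read from the GENCODE release M21 transcripts (GRCm38, the build named mm10 in the deposited labels). It was searched downstream of the stop codon as a stem of 6 paired bases that starts with GG and a loop of 4 bases that starts with TT. Such a stem-loop was found in 34 of the 52 cluster genes and in 1 of the 9 variants, H2afx. In a wider search over whole transcripts, 0.698% of 15624 protein-coding genes held it, histone genes included. Cluster genes used 6 forms of it, and 20 of the 34 shared the same letters. Of the other 18 cluster genes, 11 had models that end within 15 bases of the stop codon, and 7 had longer models without it, among them Hist1h2bc, Hist1h2bq, Hist1h2br and Hist2h2be. The genes on which the results turn are shown here with 5 flanking bases on either side, 5′ to 3′ on the sense strand, with stem and loop in capitals.
Hist1h2ao: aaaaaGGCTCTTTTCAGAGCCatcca
Hist1h2ap: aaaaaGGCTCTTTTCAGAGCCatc
Hist1h2ac: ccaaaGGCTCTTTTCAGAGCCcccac
Hist2h2aa2: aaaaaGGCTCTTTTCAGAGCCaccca
Hist2h2ac: aaaaaGGCTCTTTTTAGAGCCaccaa
Hist1h1c: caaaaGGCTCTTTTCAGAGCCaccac
Hist1h4h: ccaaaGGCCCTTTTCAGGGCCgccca
H2afx: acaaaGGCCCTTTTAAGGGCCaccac
The H2A and H1 genes shown here carry one kind of stem, and Hist1h4h and H2afx another. The models differ in what follows it. Hist1h2ao (13:21810465-21810944, plus strand, 1 exon) ended 31 bases after the stem-loop and Hist2h2aa2 (3:96239749-96240276, minus strand, 1 exon) 35 bases after it. Hist1h1c (13:23738808-23740367, plus strand) went on for 840 bases, H2afx (9:44334694-44336077, plus strand) for 822 and Hist1h2ac (13:23681467-23683948, minus strand) for 2010. The poly(A) signal AATAAA or ATTAAA was found within the last 40 bases of 13 cluster genes and 7 variants.

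Cluster genes were also alike in sequence among themselves. A median of 47.8% of their 50-base words occurred in another member, and only 3 of the 52 shared none, whereas 7 of the 9 variants shared none. Near copies received nearly the same reads: Hist1h2bq and Hist1h2br differed by at most 2 reads in any library, at 722 to 1002 reads, and Hist1h2ao and Hist1h2ap by at most 1 read, at 20 to 203 reads. How reads that fit several genes were counted is not given in the sources used here, so that levels of single cluster genes are uncertain and near copies are not separate evidence.

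Per length, variants stood well above most cluster genes. The mean level over the 7 libraries had a median of 55.8 CPM per kb of exon over the 9 variants and of 1.51 CPM per kb over the 52 cluster genes, without a test, since genes are not replicates. All 9 variants had a mean of at least 10 CPM (10.7 to 285 CPM), while 9 cluster genes reached 10 CPM and 28 stayed under 1 CPM. The order per length was led by a cluster gene, Hist1h2bc (H2B, 161 CPM per kb), followed by Hist1h1c (linker histone H1, 102), the linker variant H1f0 (99.5), Hist2h2aa2 (H2A, 88.3), both genes of the replacement H3, H3f3b (82.04) and H3f3a (81.4), and Hist1h2bg (H2B, 65.7). H2afz and H2afj followed at 57.2 and 55.8 CPM per kb, H2afv at 29.0, the macrodomain variants H2afy and H2afy2 at 13.8 and 4.94 and H2afx at 10.1. The lowest gene of all was Hist4h4 (H4, 0.0332). Of the 7 cluster H3 genes, which had the lowest median by kind, 5 were at 0.0697 to 0.168 CPM per kb, and the exceptions Hist2h3c2 (3.95) and Hist2h3b (1.87) both lie in the Hist2 cluster.

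**Figure D1:**
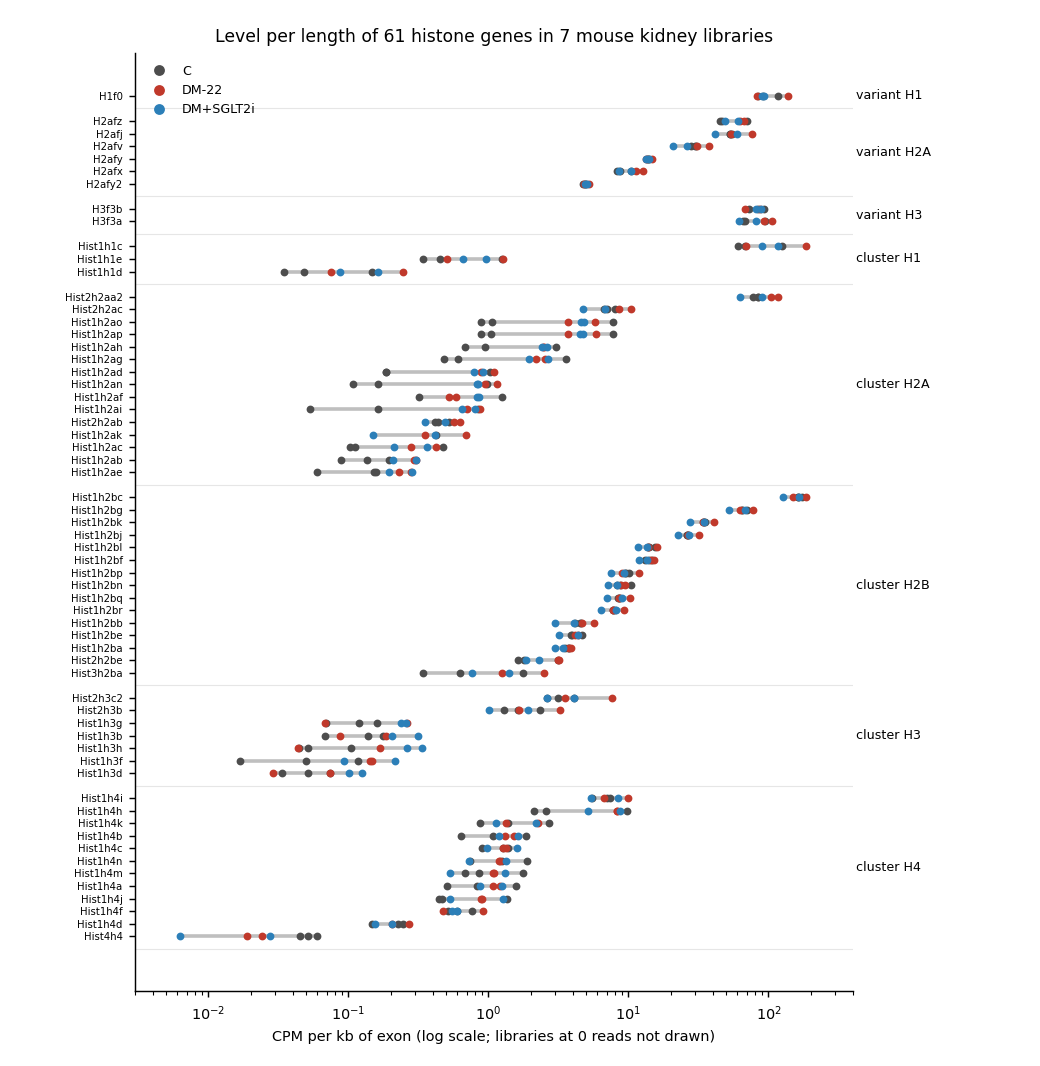
CPM per kb of exon (log axis) of each of the 61 histone genes, with 1 point per library coloured by group and a grey bar from the lowest to the highest library. Variants and most H2B genes form short bars, while Hist1 H2A genes spread widely, with 2 control libraries far to the left.

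Level per length did not follow the annotated message end alone. The 18 cluster genes whose model ends at most 100 bases after a stem-loop had a median of 4.07 CPM per kb, the 16 with a longer model 0.805, the 7 longer models without a stem-loop 2.43 and the 11 models ending at the stop codon 0.716. Without division by length the medians were 1.96, 0.80, 6.35 and 0.28 CPM, so the order of these kinds depends on the length of their models. Hist2h2aa2 and Hist1h2bk, both of the first kind, were among the 10 highest members per length. As a group, H2B genes had a median of 8.74 CPM per kb, H4 genes 1.12, H2A genes 0.716 and H3 genes 0.168. The small nuclear, nucleolar and other RNAs that carry no tail, 30 of which were listed, summed to 30.5 to 34.5 CPM in controls, 24.0 and 25.9 CPM in DM-22 mice and 25.9 and 39.7 CPM in DM+SGLT2i mice.

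Summed over the genes, the clusters gave 649, 492 and 513 CPM in control replicates 2, 8 and 9, 712 and 605 CPM in DM-22 mice and 473 and 615 CPM in DM+SGLT2i mice. The variants gave 1237, 980 and 1002 CPM in the controls, 1309 and 1127 CPM in DM-22 mice and 980 and 1091 CPM in DM+SGLT2i mice. Both sums were lowest in control replicates 8 and 9 and DM+SGLT2i replicate 1, and the groups overlapped. The ratio of the cluster sum to the variant sum stayed between 0.483 and 0.564 in all 7 libraries. Beneath this near constant ratio the kinds of cluster histone differed, with highest over lowest library at 1.45 for H2B, 1.71 for H2A, 2.08 for H4, 2.82 for H3 and 3.08 for H1, where Hist1h1c made up 98.5% of the sum.

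Comparison of DM-22 mice with controls asked which histone genes were altered after 22 weeks of hyperglycemia. Of the 61 genes, 39 passed the filter of 1 CPM in at least 2 libraries, 30 cluster genes and all 9 variants. With limma and Benjamini-Hochberg adjustment, 0 of the 13976 tested genes (0.0%) and 0 histone genes passed an adjusted p of 0.05 in any of the 4 comparisons, and the same held for limma-voom on the recovered reads. At an unadjusted p under 0.05, 1 histone gene (2.56% of the 39) was called in DM-22 mice against controls, beside 4.47% of all tested genes. Over all 52 cluster genes the median log2 fold change was 0.16, over the 9 variants 0.21 and over all tested genes 0.00447. Over the 30 tested cluster genes alone the median was 0.30, above that of the variants.

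That gene was Hist2h2aa2, the most abundant H2A gene of the clusters. All of its 50-base words (100%) also occurred in other annotated genes, 39.9% of them in another member. Its reads can therefore not be assigned to this gene alone. Hist2h2aa2 stood at 44.7, 40.6 and 44.2 CPM in the controls, at 55.2 and 61.6 CPM in DM-22 mice and at 33.0 and 47.1 CPM in DM+SGLT2i mice. Both DM-22 libraries lay above all others, an order that was not counted over all genes. The log2 fold change against controls was 0.43 ± 0.18 (SE), with an unadjusted p of 0.0477 and an adjusted p of 0.804 by limma. Leaving out any 1 control or DM-22 library ended this call: the log2 fold change was 0.46 ± 0.19 without control replicate 2 (unadjusted p = 0.0544, limma), and over all 7 libraries left out in turn the unadjusted p ran from 0.0222 to 0.190.

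H2afx, whose protein is phosphorylated at DNA breaks, gave 14.5, 11.4 and 12.1 CPM in the controls, 17.5 and 15.7 CPM in DM-22 mice and 11.8 and 14.5 CPM in DM+SGLT2i mice. The DM-22 libraries were again the highest and did not overlap with the controls, and the treated mice fell within the control range or just above it. In limma the log2 fold change was 0.38 ± 0.18 (SE) for DM-22 mice against controls (adjusted p = 0.804) and -0.33 ± 0.19 for DM+SGLT2i against DM-22 mice (adjusted p = 0.881). Neither difference passed the threshold, and the share of all genes with such a separation was not counted.

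H3f3a, which encodes replacement H3, was at 333, 232 and 237 CPM in the controls, 369 and 327 CPM in DM-22 mice and 214 and 284 CPM in DM+SGLT2i mice. Control replicate 2 lay inside the range of the DM-22 mice, so that groups overlapped, and the log2 fold change was 0.40 ± 0.22 (adjusted p = 0.804, limma). Its companion H3f3b, which encodes the same protein, showed no such order, with 215 to 275 CPM in controls, 258 and 204 CPM in DM-22 mice and 265 and 243 CPM in DM+SGLT2i mice.

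H2afz, a variant found around transcription start sites, was at 125, 83.2 and 79.4 CPM in the controls, 118 and 111 CPM in DM-22 mice and 87.0 and 108 CPM in DM+SGLT2i mice. Control replicate 2 was the highest library, and all 4 diabetic libraries lay above the other 2 controls. The log2 fold change in DM-22 mice was 0.29 ± 0.23 with all controls (adjusted p = 0.805, limma) and 0.49 ± 0.14 without control replicate 2 (adjusted p = 0.122). H2afy and H2afy2, by contrast, varied little, between 90.6 and 99.6 CPM and between 10.3 and 11.3 CPM over the 7 libraries.

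**Figure D2:**
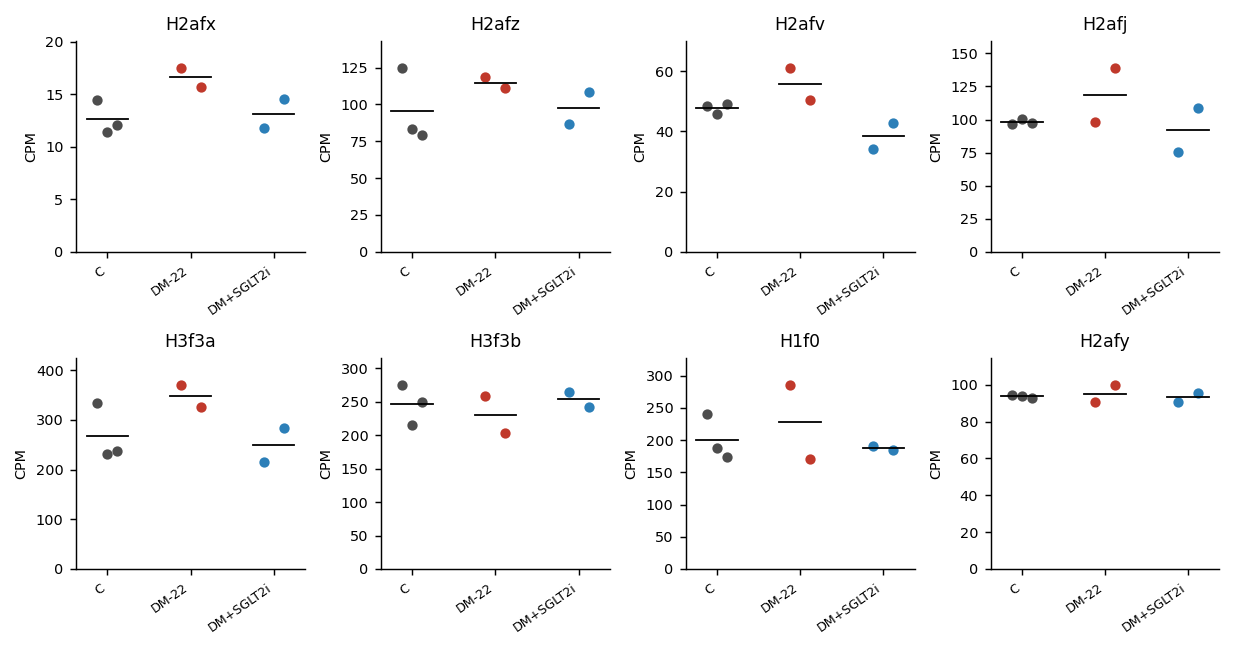
CPM of 8 variant histone genes by group, 1 point per library and a line at the group mean. H2afx and H2afv separate DM-22 mice from controls without overlap, an order that was not counted over all genes. H2afz and H3f3a have 1 control at the level of DM-22 mice, and H2afy is nearly flat.

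Hist1h1c, a linker histone gene whose messages are also made outside S phase, was at 195, 94.2 and 105 CPM in controls, 289 and 107 CPM in DM-22 mice and 141 and 181 CPM in DM+SGLT2i mice. Its log2 fold change in DM-22 mice of 0.50 ± 0.48 (adjusted p = 0.819, limma) came from 1 library, since it was -0.21 without DM-22 replicate 1. Slc12a1 was also highest in that library (5580 CPM), next in DM+SGLT2i replicate 2 and control replicate 2 (2549 and 2335 CPM) and lowest in control replicates 8 and 9 and DM-22 replicate 2 (922, 876 and 602 CPM), and its part in the values of Hist1h1c was not tested. Hist1h1e, at 0.653 to 2.47 CPM, and Hist1h1d, at 0.256 to 1.82 CPM, had their highest values in the same DM-22 library.

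H2A genes of the Hist1 cluster differed widely between libraries, by 6.36 times from the lowest to the highest summed level. Only the single genes of Hist4 (Hist4h4, 9.46 times, at 0.0181 to 0.171 CPM) and Hist3 (Hist3h2ba, 7.27 times) had a wider range among the sums by cluster and kind. The 12 Hist1 H2A levels summed to 13.7, 2.21 and 2.16 CPM in control replicates 2, 8 and 9, to 11.1 and 8.12 CPM in DM-22 mice and to 8.53 and 9.79 CPM in DM+SGLT2i mice. Hist1h2ao was at 3.70, 0.505 and 0.427 CPM in the controls, 2.79 and 1.78 CPM in DM-22 mice and 2.19 and 2.29 CPM in DM+SGLT2i mice. Control replicates 8 and 9 were far below the 4 diabetic libraries, and control replicate 2 was above all of them. Its log2 fold change in diabetic mice (both groups together) against controls was 0.80 ± 0.56 with all 3 controls (adjusted p = 0.988, limma), and 1.51 ± 0.23 without control replicate 2 (adjusted p = 0.0654). Its near copy Hist1h2ap gave 0.80 in DM-22 mice against controls, and since both hold nearly the same reads this is no second observation.

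Part of this order held for all 12 of these genes. Without control replicate 2, all 4 diabetic libraries lay above both remaining controls in 12 of the 12 Hist1 H2A genes, beside 13.8% of all genes listed, whereas with all 3 controls this was so in 2, Hist1h2ab and Hist1h2ae, beside 1.33%. Control replicate 2 itself lay above control replicates 8 and 9 in all 12, beside 44.3% of all genes listed. It lay above all 4 diabetic libraries in 6 of them (Hist1h2ac, Hist1h2af, Hist1h2ag, Hist1h2ah, Hist1h2ao and Hist1h2ap) and not in the other 6. Counts behind these values were small: Hist1h2ak had 0 reads in control replicates 8 and 9, which allows a level of up to 0.0632 and 0.0641 CPM (3 reads, counting error only), and was at 0.0587 to 0.270 CPM in diabetic mice. Hist1h2ag, at 0.295 and 0.235 CPM in those controls, was at 1.74 CPM in control replicate 2 and at 0.939 to 1.30 CPM in diabetic mice. Hist1h2ac, with a model that runs on for 2010 bases and few words in common with other members (11.6%), was at 1.17, 0.253 and 0.278 CPM in the controls and at 0.528 to 1.04 CPM in diabetic mice. The 12 genes overlap in sequence and are not 12 independent observations. Over all 52 cluster genes the diabetic libraries lay above both controls in 22, among them the 3 H1 genes, 2 of 15 H2B genes, 1 of 7 H3 genes and 4 of 12 H4 genes, and over the 9 variants in 1, H2afz.

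H2B genes of the same cluster showed another order. For 0 of the 13 Hist1 H2B genes did all diabetic libraries lie above control replicates 8 and 9, and their sum was 334 to 358 CPM in controls, 319 and 386 CPM in DM-22 mice and 267 and 341 CPM in DM+SGLT2i mice. Hist1h2bc, the most abundant cluster gene, was at 202, 189 and 189 CPM in the controls, 173 and 214 CPM in DM-22 mice and 148 and 191 CPM in DM+SGLT2i mice. Hist1h2bg followed it at a fixed proportion of 21.2 to 22.4%, and Hist1h2bk at 8.31 to 9.36%. The H2A genes kept no such fixed proportion to Hist1h2ao. Apart from its near copy Hist1h2ap, the steadiest was Hist1h2ag at 42.9 to 59.7% of Hist1h2ao, while Hist1h2ah ran from 33.2 to 90% and Hist1h2ae, which rests on few reads, from 2.97 to 25%. Hist1h2ao itself had only 24 and 20 reads in control replicates 8 and 9, where Hist1h2ah had 13 and 18. Hist1h2bc had 7550 to 11021 reads per library. Counting error is therefore larger in the H2A proportions, and its part in their wider spread was not tested.

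**Figure D3:**
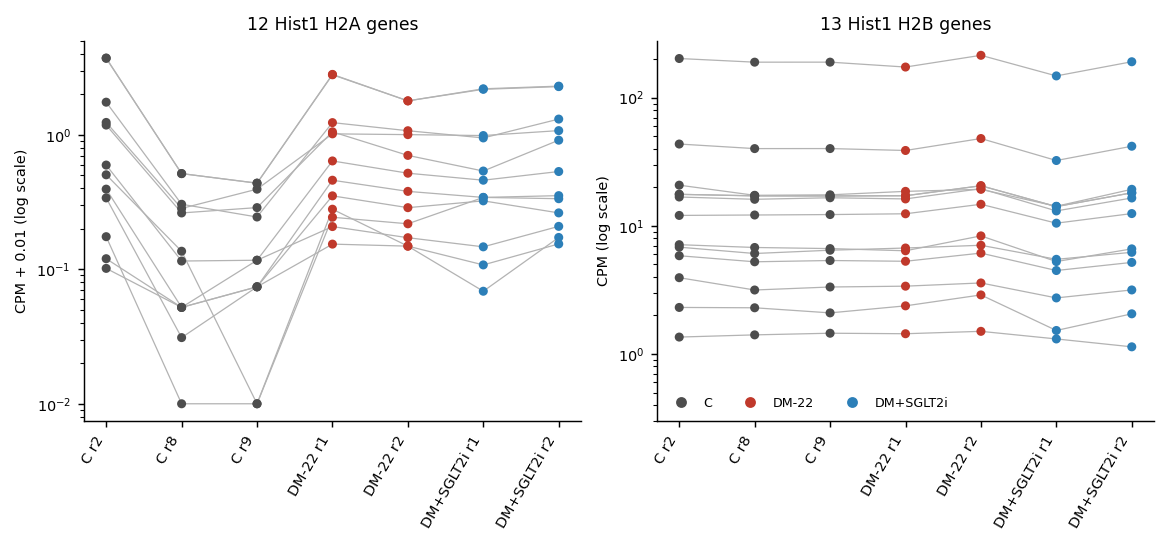
CPM of the 12 Hist1 H2A genes (left, with 0.01 added so that libraries without reads can be drawn) and the 13 Hist1 H2B genes (right) in each library on log axes, each gene joined by a grey line that only guides the eye. H2A genes drop in control replicates 8 and 9 and are high in control replicate 2 and the 4 diabetic libraries, while H2B genes run nearly level.

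In the clusters H2A and H2B genes stand head to head. In 11 pairs among the members the annotated starts were 176 to 302 bases apart. Taking diabetic mice against control replicates 8 and 9, the ratio of mean CPM was between 1.12 and 6.96 for the H2A gene (10 pairs with a control level above 0, median 4.56) and between 0.959 and 1.53 for its H2B partner (median 1.004). The Hist1 H2B partners overlap in sequence with each other, as the H2A genes do, so the 11 pairs are not 11 independent observations. Hist1h2ao and Hist1h2bq, 268 bases apart, gave 4.86 and 1.02, and Hist1h2ac and Hist1h2bc, 251 bases apart, gave 2.99 and 0.959. These H2A ratios rest on leaving out control replicate 2. With all 3 controls, a setting added after the values were seen, the same 10 H2A genes had ratios of 1.055 to 2.26 (median 1.55) and the 11 H2B genes of 0.925 to 1.20 (median 0.987), with 1.47 for Hist1h2ao and 1.396 for Hist1h2ac. Among these 10 pairs the ratio was higher for H2B in the Hist2 pair alone, with 1.12 for Hist2h2ac and 1.53 for Hist2h2be without control replicate 2 and 1.055 and 1.20 with it.

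The stretch before Hist1h2ao is printed to show what a pair shares. It is the RefSeq promoter window (GRCm38.p6, 13:21810117-21810416, plus strand), from 250 bases before to 50 after the RefSeq start of the gene, and it also covers most of the window of Hist1h2bq on the other strand. Capitals mark CCAAT on either strand.
Hist1h2ao: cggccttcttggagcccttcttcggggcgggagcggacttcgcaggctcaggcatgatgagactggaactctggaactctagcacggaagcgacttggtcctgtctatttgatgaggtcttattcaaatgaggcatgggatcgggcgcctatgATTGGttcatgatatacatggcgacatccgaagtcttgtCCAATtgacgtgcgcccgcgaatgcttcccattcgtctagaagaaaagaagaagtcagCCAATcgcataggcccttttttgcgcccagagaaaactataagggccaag
The window holds CCAAT 3 times and no TATAAA. Windows could be matched for 57 of the 61 genes, 49 cluster genes and 8 variants. CCAAT on either strand was found in 81.6% of the cluster genes, 75% of the variants and 37.9% of all 27025 windows, and at least 2 copies in all 15 H2A and all 13 H2B windows of the clusters against 12.2% of all. With starts 176 to 302 bases apart, the windows of head-to-head partners overlap. The same copies can therefore be counted for both partners, and these windows are not separate observations. TATAAA on either strand was in 61.2% of the cluster genes, 12.5% of the variants and 14.2% of all windows. A match is a string of letters and no measured binding site.

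Hist1h4h was the most abundant of 4 H4 genes with all diabetic libraries above control replicates 8 and 9, the others being Hist1h4a, Hist1h4b and Hist1h4j. It was at 4.60, 0.990 and 1.22 CPM in control replicates 2, 8 and 9, at 3.87 and 3.88 CPM in DM-22 mice and at 2.41 and 4.06 CPM in DM+SGLT2i mice. All diabetic libraries lay above 2 controls and below the remaining one. The log2 fold change in DM-22 mice was 0.89 ± 0.55 (adjusted p = 0.804, limma), and in diabetic mice together it was 0.76 ± 0.46 with all controls (adjusted p = 0.988) and 1.32 ± 0.24 without control replicate 2 (adjusted p = 0.0707). Hist1h4i, the most abundant H4 gene, did not separate, with 5.39 and 5.11 CPM in control replicates 2 and 9 and 3.91 to 7.26 CPM in diabetic mice. For H3, Hist2h3c2 was highest in DM-22 replicate 2 (7.77 CPM) and at 2.66 to 4.17 CPM in the other 6 libraries.

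Hist2h2be, an H2B gene that shares no 50-base word with another gene and lacks the stem-loop in its model, was at 8.17, 4.27 and 4.68 CPM in controls, 8.30 and 8.16 CPM in DM-22 mice and 4.85 and 6.03 CPM in DM+SGLT2i mice. Treated mice lay between the DM-22 mice and control replicates 8 and 9. The log2 fold change in DM-22 mice was 0.54 ± 0.29 (adjusted p = 0.804, limma), and 0.81 ± 0.18 without control replicate 2 (adjusted p = 0.0939). Hist3h2ba, the Hist3 H2B gene and likewise without a shared word among members, was at 1.08, 0.211 and 0.385 CPM in the controls, 1.53 and 0.763 CPM in DM-22 mice and 0.470 and 0.867 CPM in DM+SGLT2i mice.

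Comparison of DM+SGLT2i with control mice asked whether a difference remained after glucose lowering. At an unadjusted p under 0.05, 0 of the 39 tested histone genes were called, beside 1.08% of all tested genes. The median log2 fold change was 0.05 over the 52 cluster genes, -0.01 over the 9 variants and -0.01 over all tested genes. Over the 30 tested cluster genes alone the median was -0.096, so its sign depends on the genes under the filter. Hist1h2ao differed by 0.80 ± 0.67 (adjusted p = 0.9997, limma). All 12 Hist1 H2A genes had a positive value and all 13 Hist1 H2B genes a negative one, beside 6602 of all 13976 tested genes with a positive value. Only 5 of these H2A genes passed the filter, and the genes of each kind overlap in sequence, so these signs are not independent observations. The controls are the same mice in this comparison and in that of DM-22 mice, so the similar values of Hist1h2ao in both are not separate evidence.

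Comparison of DM+SGLT2i with DM-22 mice asked what changed with glucose lowering, and does not rest on the controls for its means. The log2 fold change was below 0 in 44 of the 52 cluster genes (median -0.14) and in 8 of the 9 variants (median -0.24). Over all tested genes the median was 0.00451, and 7068 of 13976 were above 0. Cluster genes overlap in sequence, so their signs are not independent observations. Over the 30 tested cluster genes alone the median was -0.22. At an unadjusted p under 0.05, 3 histone genes (7.69% of the 39) were called, all lower, beside 3.91% of tested genes in either direction and 1.66% lower. They were H2afv, Hist2h2aa2 and Hist2h2ac, and none passed the adjusted threshold. Each of these calls was lost when DM+SGLT2i replicate 1 was left out, that of H2afv also without DM-22 replicate 1, those of the Hist2 genes also without DM-22 replicate 2, and that of Hist2h2ac also without control replicate 8 or 9, with unadjusted p-values by limma of up to 0.113 for H2afv, 0.148 for Hist2h2aa2 and 0.200 for Hist2h2ac.

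H2afv, a close relative of H2afz, stood at 48.5, 45.8 and 49.2 CPM in the controls, 60.9 and 50.3 CPM in DM-22 mice and 34.2 and 42.7 CPM in DM+SGLT2i mice. The 3 groups did not overlap, with untreated diabetic mice above and treated mice below the controls. The smallest gap was between 50.3 CPM in a DM-22 mouse and 49.2 CPM in a control, and this order was not counted over all genes. The log2 fold change between treated and untreated diabetic mice was -0.53 ± 0.17 (SE; unadjusted p = 0.0181, adjusted p = 0.881, limma). Hist2h2aa2 gave -0.56 ± 0.19 (adjusted p = 0.881). Hist2h2ac, its neighbour in the Hist2 cluster, was at 4.43 and 5.46 CPM in DM-22 mice, 2.45 and 3.52 CPM in DM+SGLT2i mice and 3.45 to 4.16 CPM in controls, a difference of -0.65 ± 0.25 (adjusted p = 0.881). H3f3a gave -0.49 ± 0.25 and Hist1h2bc -0.20 ± 0.19, both with an adjusted p of 0.881 by limma.

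All 4 diabetic libraries against the controls gave 0 histone genes at an unadjusted p under 0.05, beside 2.04% of tested genes. Median log2 fold changes were 0.12 over the cluster genes (0.08 over the 30 of them tested) and 0.03 over the variants. By kind they were 0.43 for H1, 0.39 for Hist1 H2A, -0.05 for Hist1 H2B, 0.11 for H3 and 0.07 for H4.

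Without control replicate 2 more histone genes reached an unadjusted p under 0.05, and 0 passed the adjusted threshold. In DM-22 mice against controls 11 of the 39 were higher (28.2%), beside 10.4% of all tested genes, and Hist2h2aa2 was not among them. In DM+SGLT2i mice 5 were higher (12.8%), beside 8.73%, and in diabetic mice together 8 were higher, beside 10.4%, and 0 histone genes were lower in these 3 comparisons. Between treated and untreated diabetic mice 5 were lower (12.8%), beside 3.89%. The 5 histone genes with the smallest p in diabetic mice together were Hist1h2ao, Hist1h2ap, Hist1h4h, Hist1h2ag and Hist1h2ah, with adjusted p-values of 0.0654 to 0.0986 by limma, and the first pair counts the same reads. The filter was set on all 7 libraries. All 5 tested Hist1 H2A genes were under 1 CPM in control replicates 8 and 9 and passed it only through the other libraries, where they are higher. They make up 5 of the 11, 4 of the 5 and 5 of the 8 higher calls, which are therefore no separate support. Over all genes the fit without control replicate 2 called 2, 17, 0 and 28 genes in the 4 comparisons, so that 1 control decides whether any gene is called.

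**Figure D4:**
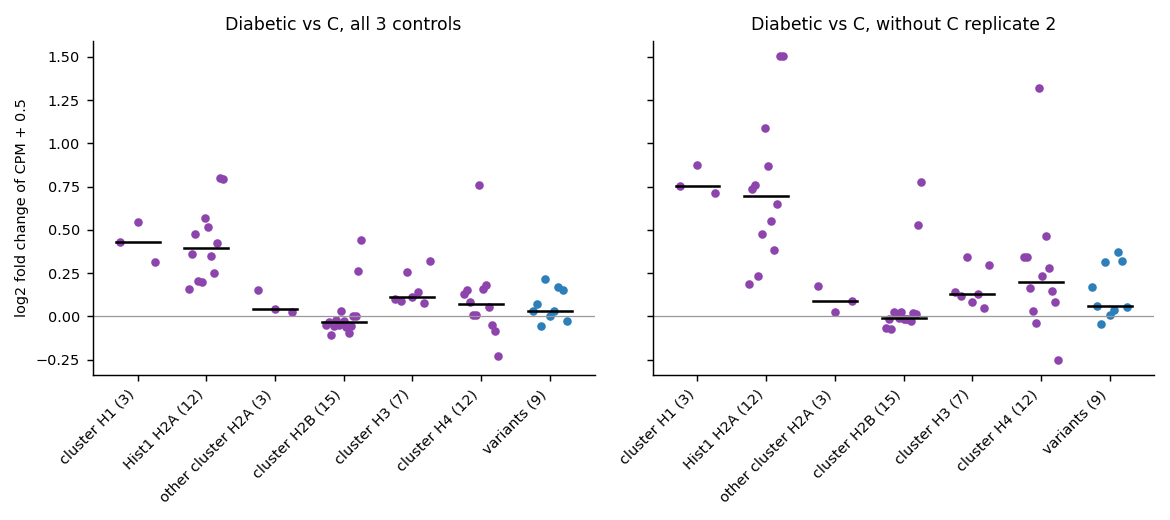
Log2 fold change of CPM + 0.5 between the 4 diabetic libraries and controls for each of the 61 genes by kind, with all 3 controls (left) and without control replicate 2 (right), number of genes in brackets and a line at the median. The median of the 12 Hist1 H2A genes moves from 0.39 to 0.69 while that of the 15 cluster H2B genes stays near 0.

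Genes that make, end and deposit histone messages and proteins were taken from lists. For the ending and decay of histone messages, 24 of 27 genes were tested. In diabetic mice against controls 0 were higher and 2 lower at an unadjusted p under 0.05, beside 2.04% of all tested genes in either direction. The median log2 fold change of the list was -0.06, and 0 passed the adjusted threshold. The 2 lower genes act on histone genes or message ends: Casp8ap2, part of the histone locus body, gave -0.56 ± 0.21, and Cpsf4, a poly(A) signal binding subunit, -0.48 ± 0.20, each with an adjusted p of 0.988 by limma. Casp8ap2 was at 6.78, 11.03 and 11.5 CPM in control replicates 2, 8 and 9, 5.08 and 4.86 CPM in DM-22 mice and 8.61 and 7.35 CPM in DM+SGLT2i mice. This is the reverse of the order of the Hist1 H2A genes in controls. Slbp, which binds the stem-loop, was at 16.7 to 20.6 CPM in controls, 20.0 and 13.8 CPM in DM-22 mice and 16.1 and 17.8 CPM in DM+SGLT2i mice (log2 fold change -0.13 ± 0.17, adjusted p = 0.988, limma).

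Of 30 histone chaperones, all tested, 0 were called in either direction with all controls (median -0.01), and Nasp, which carries H1 and H3, had the smallest p (-0.24 ± 0.12, adjusted p = 0.988, limma). Without control replicate 2, 1 was higher and 2 were lower at an unadjusted p under 0.05, beside 1447 and 2021 of all 13976 tested genes.

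Genes of S phase and proliferation are those with which cluster histones are normally made. Of 47, 42 were tested, and in diabetic mice against controls 0 were higher and 1 lower (Mcm10, -0.54 ± 0.21, adjusted p = 0.988, limma), with a median of 0.09. Without control replicate 2, 12 were higher and 3 lower, beside 1447 and 2021 of all 13976 tested genes, and 0 of the list passed the adjusted threshold. Summed over 46 listed genes, they gave 407, 320 and 313 CPM in control replicates 2, 8 and 9, 324 and 343 CPM in DM-22 mice and 363 CPM in both DM+SGLT2i mice. Mki67, a marker of dividing cells, was at 6.34, 2.72 and 3.08 CPM in the controls, 3.10 and 3.08 CPM in DM-22 mice and 7.91 and 5.87 CPM in DM+SGLT2i mice (0.26 ± 0.30, adjusted p = 0.988, limma). In DM-22 mice Mki67 was near its level in control replicates 8 and 9, and other genes of the list were not. Both DM-22 libraries lay above these 2 controls in 19 of the 46 genes, beside 26.7% of all genes listed, and below both in 7. All 4 diabetic libraries lay above them in 18 of the 46, beside 13.8% of all genes listed. Control replicate 2 lay above them in 39 of the 46, beside 44.3%. Rrm2, a subunit of ribonucleotide reductase, was at 2.59 and 3.29 CPM in control replicates 8 and 9 and at 6.50 and 5.00 CPM in DM-22 mice. Mcm5, of the replicative helicase, was at 4.76 and 4.94 CPM in these controls and at 7.45 and 7.84 CPM in DM-22 mice. In control replicate 2 they were at 9.73 and 14.8 CPM, above all 4 diabetic libraries. Rrm2 and Mcm5 were chosen after their values were seen, and the part of dividing cells in the levels of histone genes was not tested.

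**Figure D5:**
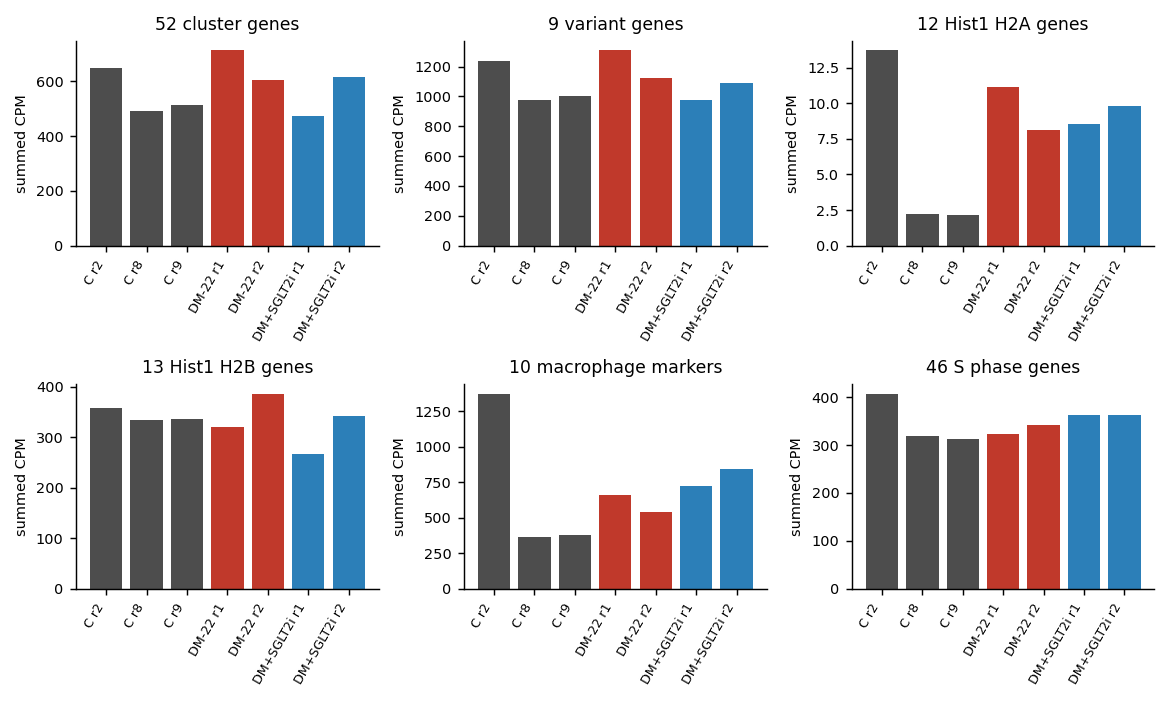
Summed CPM of the cluster genes, the variants, the Hist1 H2A and H2B genes, 10 macrophage markers and 46 S phase and proliferation genes in each library, as bars from 0 coloured by group. The Hist1 H2A sum is 2.16 to 2.21 CPM in control replicates 8 and 9 and 8.12 to 13.7 CPM elsewhere. The macrophage sum and, by a small margin, the S phase sum are also lowest in these 2 controls.

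Summed markers of macrophages, T cells and, by a small margin, red blood cells were lowest in control replicates 8 and 9, as was the Hist1 H2A sum. The S phase sum was also lowest there, by a small margin (320 and 313 CPM, against 324 CPM or more elsewhere), and highest in control replicate 2 (407 CPM). Markers of B and plasma cells and of urothelium were not lowest in these 2 controls. The macrophage sum was lowest in control replicates 8 and 9 and highest in control replicate 2, as was the Hist1 H2A sum, and without control replicate 2, 8 of 10 macrophage markers were higher in diabetic mice at an unadjusted p under 0.05, 1 of them past the adjusted threshold, beside 0 with all controls. Of all tested genes, 10.4% were higher in diabetic mice without that control. T cell markers (7 genes) summed to 6.46 and 5.66 CPM in control replicates 8 and 9 and to 9.13 to 18.9 CPM in the other libraries, and red blood cell markers (7 of 12 listed) to 187 to 330 CPM in controls and 202 to 261 CPM in diabetic mice. B and plasma cell markers (10 genes) were at 179 to 889 CPM in controls and 65.3 to 397 CPM in diabetic mice, and urothelial markers (8 genes) at 5.15 to 72.2 CPM and 2.54 to 158 CPM. Of 8 testis markers, 2 were listed, with sums of 0.0783 to 0.406 CPM. The part of these cells in the levels of histone genes was not tested. Kidney markers were detected in all 7 libraries, with Slc34a1 of the proximal tubule at 2841 to 9453 CPM and Umod of the thick ascending limb at 2337 to 6933 CPM.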

How the data were processed

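PolyA-selected, strand-specific libraries of renal tissue were sequenced by the authors, and bcl2fastq, FastQC, Trim Galore, STAR, edgeR and mm10 are named in the submitters' processing notes. The counting tool is not given in the sources used here. The authors deposited TMM-normalized log2 CPM that include a prior count of about 2 reads, where the design had assumed plain CPM. The logarithm was undone and the floor that all libraries share (-4.66 on the log2 scale) was subtracted, after which all values (100%) came out as whole reads within 0.01 read. A count model was therefore run as an alternative only.

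Tests used limma 3.58.1 in R 4.3.3 with a trended spread on log2(CPM + 0.5), on the 13976 genes that reached 1 CPM in 2 libraries or more. A joint fit covered the 3 groups, p-values are two-sided, and adjustment was by Benjamini-Hochberg over all tested genes with a threshold of 0.05. Fold changes of low genes are understated on this scale. List medians include genes under the filter. Fits were checked on simulated data. Alternatives were pseudocounts of 0.1 and 2, no filter, limma-voom, scaling to total reads or upper quartile, only the groups compared, each library left out and a replicate block.

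Members and lists were chosen with earlier results of these data known. Named are the 9 variants, the 10 highest cluster genes, those with the smallest p (8 in diabetic mice against controls, 5 in each comparison of DM-22 mice), 3 per list of related genes, Slbp and Mki67. Hist1h2ac, Hist1h2ab, Hist1h2ae, Hist1h2ak, Hist1h1e, Hist1h4a, Hist1h4b, Hist1h4i, Hist1h4j and Hist2h3b, and Slc12a1, were named after their values were seen.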

Additional observations from a re-analysis of the deposited data

Results flagged for a closer look

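Among the 4 diabetic libraries, Hist1h4h and Hist1h2be each had 1 library far from the other 3. For Hist1h4h the gap was 0.882 of the whole range (2.41 CPM in DM+SGLT2i replicate 1 against 3.87 to 4.06 CPM), and for Hist1h2be it was 0.862 (14.2 CPM in the same library against 18.6 to 19.3 CPM), both above Dixon's critical value for 4 samples at the 95% level. Of 38 sets of 4 values examined, 2 exceeded it, and chance alone gives about 1 in 20.

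H2afv and Hist1h2bb lay above every control in both DM-22 mice and below every control in both DM+SGLT2i mice. Treated and untreated diabetic mice differed by a log2 fold change of -0.53 for H2afv and -0.46 for Hist1h2bb, each with an adjusted p of 0.881 by limma. Hist1h2bb was at 2.09 to 2.31 CPM in controls, 2.38 and 2.89 CPM in DM-22 mice and 1.53 and 2.06 CPM in DM+SGLT2i mice. These values rest on 78 to 132 reads per library, and the groups lie close at their borders. How many of all genes show the same order was not counted.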

How the results depend on the processing

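Leaving out 1 library at a time moved the number of genes called between 0 and 2 in DM-22 mice against controls, between 0 and 17 in DM+SGLT2i mice and between 0 and 28 in all diabetic mice, and the highest count came without control replicate 2 each time. Counts chosen after seeing the data moved too: the Hist1 H2A genes with all diabetic libraries above every control numbered 2 to 12, all 52 cluster genes 2 to 22, Hist1 H2B genes 0 to 1 and variants 0 to 1. The median log2 fold change of the variants between DM+SGLT2i and DM-22 mice lay between -0.40 and -0.11. Hist1h1c turned to -0.21 in DM-22 mice without DM-22 replicate 1. The cause of these shifts was not tested. Every other list median and summed level moved by less than 1 SD between replicates under each alternative tried, and every other gene value kept its sign and its side of the adjusted threshold. The summed Hist1 H2A level in diabetic mice against controls was a log2 fold change of 1.21 with all controls and 2.09 without control replicate 2. Replicate numbers shared by DM-22 and DM+SGLT2i mice did not pair them: deviations of same-numbered libraries correlated at -0.04 over 13976 genes. On recovered reads with limma-voom, which shrinks low genes less, the median of the cluster genes in DM-22 mice against controls was 0.35, against 0.16 with a pseudocount of 0.5 CPM. With a replicate block, 0 genes were called, and the medians stayed at -0.14 for cluster genes and -0.24 for variants. Scaling to total reads moved the median of all tested genes by 0.11 between DM+SGLT2i and DM-22 mice, and left 1 histone gene at an unadjusted p under 0.05 there. Depth limits the low cluster genes, since Hist1h2ao rests on as few as 20 reads in a library and Hist1h2ak on 0.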
